A study of Mus musculus with 8 samples.

Results

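The genes described here encode the proteins of 2 ribosomes, the cytosolic ribosome and the mitochondrial ribosome, in the cortex of mice that lack the transcriptional repressors SHARP1 and SHARP2 (S1/2-/-) and of wild-type (WT) mice. Members were the genes on the array whose symbol starts with Rpl, Rps or Rplp followed by a number (the 3 Rps6k kinase genes were left out), or with Mrpl or Mrps followed by a number, and that had a probe set with that symbol alone. This gave 95 of the 8251 genes with such a probe set, 34 cytosolic (17 of the large and 17 of the small subunit) and 61 mitochondrial (40 and 21), and each gene was read from its probe set with the highest mean log2 signal over the 8 arrays. Of these, 25 cytosolic and 57 mitochondrial genes passed the filter on low signal, which was set on the mean of all 8 arrays and not on a group. Membership and subunit rest on the letters of the symbol, and the place of each protein in a ribosome was not checked. The tested cytosolic member Rps4l is annotated as a transcribed pseudogene. RNA was measured on 8 Affymetrix arrays, 2 for each of 4 groups: S1/2-/- at ZT16, WT at ZT16, S1/2-/- at ZT4 and WT at ZT4, where ZT is the number of hours after lights on in a cycle of light and darkness, so that ZT4 falls in the light phase, when mice mostly rest, and ZT16 in the dark phase, when they are mostly active. All mice were 4 months old, of strain C57/bl6, group housed and without drug treatment, and the S1/2-/- and WT mice came from parents heterozygous for both genes. The tissue was a coronal slab of cortex that holds all cell types of the region, so that fewer cells of a type and less RNA per cell cannot be told apart. The study describes the samples as taken from individual mice, and the p-values measure the spread between these samples.

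The cytosolic ribosome translates nearly all proteins of the cell, and its proteins are made in fixed proportion to each other and to ribosomal RNA. In mammals the messages of cytosolic ribosomal proteins start with a C and a run of pyrimidines, the terminal oligopyrimidine (TOP) motif, which ties their translation to the kinase complex mTORC1. The proteins of the mitochondrial ribosome are encoded by another set of nuclear genes and are imported. This ribosome translates the few membrane proteins of the respiratory chain that are encoded in mitochondrial DNA. In neurons both are used heavily, for synaptic proteins in dendrites and for ATP supply.

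No ribosomal protein gene was called in any of the 7 comparisons, a call being a fold change over 1.5 with an adjusted p under 0.05 (limma, Benjamini-Hochberg over 7453 probe sets). The share of all tested probe sets called was 0.0134% for S1/2-/- against WT at ZT16, 0.0939% at ZT4, 0.255% for the mean of both times, 0% for ZT16 against ZT4 in S1/2-/-, 0.0134% in WT, 0% for the mean of both genotypes and 0% for the difference between the genotypes in the change with time. At ZT16 the cytosolic genes had a median log2 change of -0.20 in S1/2-/- against WT cortex, which is a signal 13.1% lower, and 18 of 25 were lower. The mitochondrial genes had a median of -0.066 with 37 of 57 lower, and the median over all tested probe sets was 0.0063 with 49.2% lower.

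On single arrays the cytosolic genes stood, in the median over the 25 genes, 0.13 and 0.097 below their own mean over 8 arrays (log2 scale) in S1/2-/- cortex at ZT16, against 0.034 and 0.13 above it in WT cortex at ZT16. At ZT4 the S1/2-/- arrays stood at 0.0068 and -0.045, against 0.059 and 0.050 on the WT arrays. Both S1/2-/- arrays at ZT16 were therefore below all other arrays, and at each time both S1/2-/- arrays were below both WT arrays. On the first S1/2-/- array at ZT16, 20 of 25 genes were below their own mean, and on the second 19 of 25. The mitochondrial genes stood at -0.10 and -0.027 on the S1/2-/- arrays at ZT16, against 0.031 and 0.044 on the WT arrays, and at 0.067 and -0.0098 on the S1/2-/- arrays at ZT4, against 0.030 and 0.0088 on the WT arrays. At ZT4 the S1/2-/- and WT arrays overlapped in the mitochondrial genes.

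**Figure D1:**
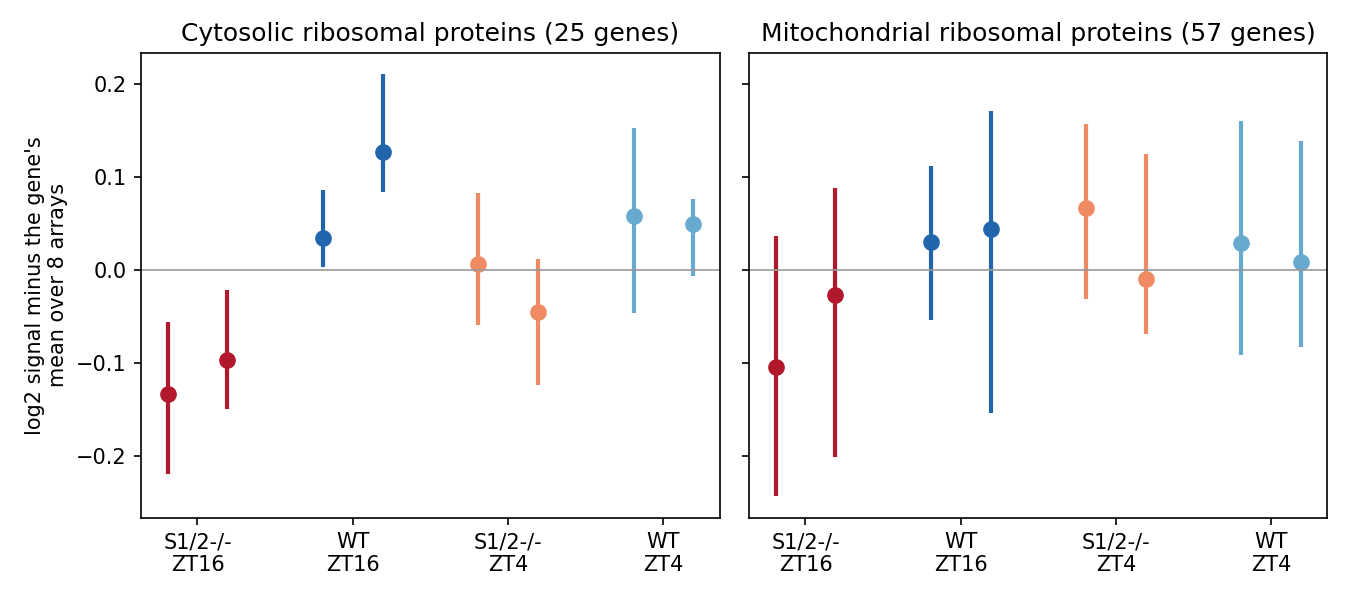
Median log2 signal of the 25 cytosolic and 57 mitochondrial ribosomal protein genes on each of the 8 arrays, relative to each gene's own mean over the arrays (y axis, log2 units); dots are medians over genes and bars the range from the lower to the upper quartile, in the order S1/2-/- ZT16, WT ZT16, S1/2-/- ZT4 and WT ZT4. The S1/2-/- arrays at ZT16 have cytosolic medians of -0.13 and -0.097 and the WT arrays at ZT16 of 0.034 and 0.13, while the mitochondrial quartile ranges of all 8 arrays overlap.

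The arrays were scaled alike by the authors (trimmed mean of 500 on each, medians of 185.9 to 205.8), and 2 arrays of a group correlated at 0.955 to 0.965 over the tested probe sets. Bhlhe40, which encodes SHARP2, had signals of 1043 and 889 in S1/2-/- cortex at ZT16, against 1189 and 1285 in WT cortex, and of 913 and 834 at ZT4, against 1074 and 983 in WT cortex. No source used here says whether this probe set falls inside the deletion, so these values do not check the genotype labels, and Bhlhe41 (SHARP1) was not analysed. Summed signals of 8 oligodendrocyte markers were 26041 to 29580 on S1/2-/- arrays, against 16854 to 22904 on WT arrays, with 7 of 7 tested markers higher over both times and 4 called, and those of 4 astrocyte markers were 6085 to 7964 on S1/2-/- arrays, against 4761 to 5476 on WT arrays. At ZT16 the choroid plexus markers summed to 231.5 and 249.2 in S1/2-/- cortex, against 3437 and 3051 in WT cortex, with Ttr, the 1 of 4 that was tested, at a log2 change of -4.33 (adjusted p = 0.212, limma), and at ZT4 to 1885 and 362 in S1/2-/- cortex, against 245 and 517 in WT cortex. The choroid plexus sums thus separated the genotypes at ZT16 and overlapped at ZT4. At ZT16 Ttr gave more to them than any other marker, and Aqp1 overlapped, with 93.8 and 54.2 in S1/2-/- cortex, against 90.7 and 90.9 in WT cortex. Gja1, which overlapped at both times, gave most to the astrocyte sums, and Penk gave most to the striatal sums. Striatal neuron markers overlapped at ZT16 and separated at ZT4, with sums of 8869 and 13421 in S1/2-/- cortex, against 3754 and 4308 in WT cortex. Endothelial markers separated at ZT16, with 2004 and 1487 in S1/2-/- cortex, against 1477 and 1370 in WT cortex, and overlapped at ZT4, and microglia and blood markers overlapped at both times. The 9 cortical neuron markers summed to 64499 to 69452 on S1/2-/- arrays and 69335 to 74658 on WT arrays, a sum to which Snap25 gave more than any other, whereas 8 of 9 were higher in S1/2-/- cortex at ZT16 (median log2 change 0.12) and 4 of 9 at ZT4 (median -0.072). The ratio of the 3' to the 5' probe set, a measure of RNA degradation, was 1.757 to 1.902 on S1/2-/- arrays and 1.913 to 2.299 on WT arrays for beta-actin, and overlapped for Gapdh, at 0.8864 to 0.9565 on S1/2-/- arrays and 0.8842 to 0.9607 on WT arrays. The oligodendrocyte and astrocyte sums and the actin ratio split the genotypes as the cytosolic medians did within each time, and the choroid plexus and endothelial sums did so at ZT16. At ZT4 the striatal sums did so, and also the cortical neuron sums, with 68430 and 68117 in S1/2-/- cortex, against 74658 and 70492 in WT cortex. The part of these values in the ribosomal ones was not tested.

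At ZT16, 12 of 25 cytosolic genes were lower in S1/2-/- cortex at an unadjusted p under 0.05 and 0 were higher, while 5.21% of all tested probe sets were lower and 5.73% higher at that limit. In 16 of 25 genes (64%) both S1/2-/- arrays were below both WT arrays, against 21% of all tested probe sets. The 12 genes came from both subunits, 5 of 12 tested large subunit genes and 7 of 13 small subunit genes, with medians of -0.16 and -0.24 over all tested genes of each subunit. They were Rpl22, Rpl7, Rps10, Rps4x, Rpl8, Rpl10a, Rps3a1, Rps7, Rps18, Rpl6, Rps3 and Rps24, and their log2 changes ran from -0.73 to -0.20. Not 1 had an adjusted p below 0.306 (limma). Of the 57 mitochondrial genes, 3 were lower (Mrps7, Mrps31 and Mrpl27) and 2 higher (Mrpl3 and Mrpl55) at the unadjusted limit, 5.21% and 5.73% being the background, and 17 (29.8%) had both S1/2-/- arrays below both WT arrays. The difference between the cytosolic and the mitochondrial median was -0.14 on the log2 scale, but -0.033 with quantile normalization and -0.042 without replicate 2 of WT at ZT16.

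**Figure D2:**
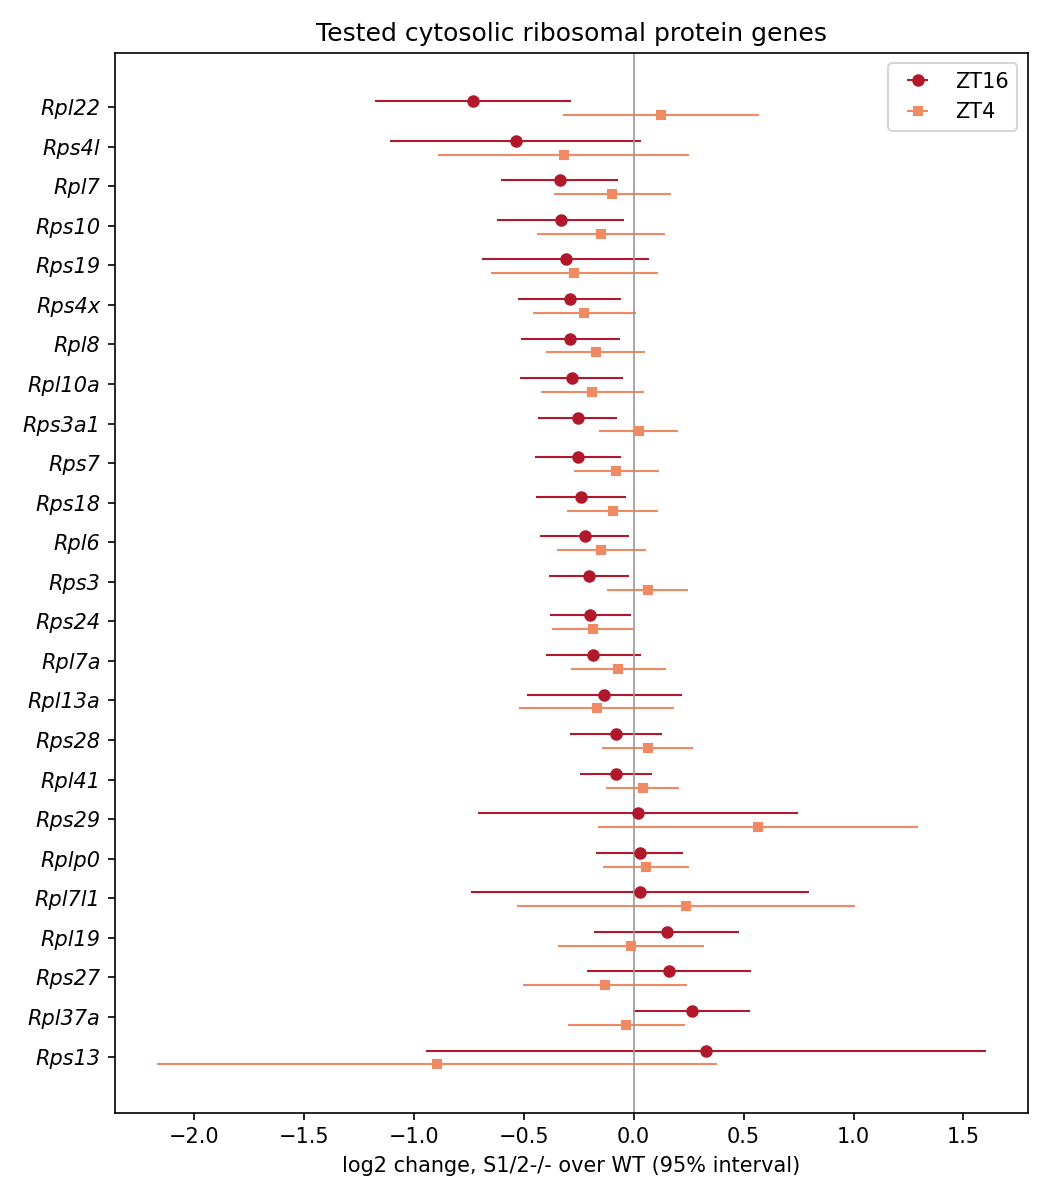
Log2 change of signal in S1/2-/- over WT cortex (x axis) for each of the 25 tested cytosolic ribosomal protein genes (rows), at ZT16 (circles) and ZT4 (squares), with the 95% interval from limma. At ZT16 the circles of 18 genes lie below 0 and the intervals of 12 genes lie wholly below it, and at ZT4 the interval of 1 gene (Rps24) does.

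The count of cytosolic genes lower at the unadjusted limit at ZT16 and the size of the median depended on the arrays and the scaling used. Lower at any p were 20 of 25 genes without replicate 1 of S1/2-/- at ZT16 and 20 without replicate 2 of WT at ZT16. With quantile normalization 19 were lower at any p, and under median centring 21. Without replicate 1 of S1/2-/- at ZT16, 1 of 25 genes was lower at the unadjusted limit, and without replicate 2 of WT at ZT16, 5 were, with medians over the 25 genes of -0.17 and -0.14. With quantile normalization 5 genes were, with a median of -0.14, and with a variance that was not tied to signal 1 was. Under median centring 14 were, but that scaling also moved the median of all tested probe sets to -0.096.

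Changes at ZT16 also varied with signal. Among the tested probe sets that do not carry a ribosomal protein symbol, split into 10 bins of mean signal, the median log2 change was 0.067 in the lowest bin and -0.051 in the highest, where 62.3% were lower and 11.2% were lower at the unadjusted limit. The highest bin starts at a mean log2 signal of 11.17 and held 18 of the 25 cytosolic and 0 of the 57 mitochondrial genes. The cytosolic median of -0.20 lies below the median of that bin, but it is taken over all 25 genes, including those in lower bins. Signal is a property of each probe set that does not compare transcript levels between genes. The median spread between the 2 arrays of a group was 0.11 (SD, log2 scale) for the cytosolic genes, 0.15 for the mitochondrial genes and 0.20 over all tested probe sets. The part of signal in the difference between the 2 ribosomes was not tested.

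**Figure D3:**
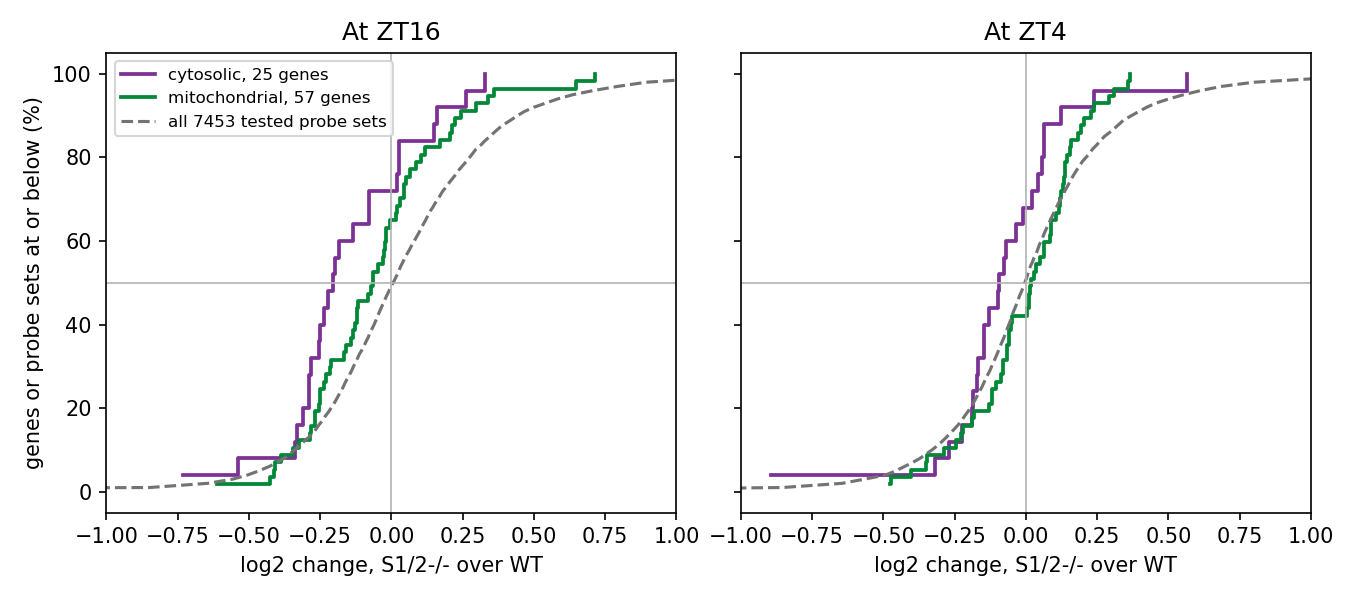
Cumulative share (y axis, percent) of the 25 cytosolic genes, the 57 mitochondrial genes and all 7453 tested probe sets with a log2 change in S1/2-/- over WT cortex at or below the value on the x axis, at ZT16 (left) and ZT4 (right). At ZT16 the cytosolic curve crosses 50% at -0.20, the mitochondrial curve at -0.066 and the curve of all probe sets at 0.0063, and at ZT4 they cross it at -0.096, 0.019 and -0.0040.

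Rpl22, a protein of the large subunit that is dispensable for translation in mouse cells and binds its own paralog's message, had the lowest p at ZT16. Its signal was 341 and 427 in S1/2-/- cortex, against 545 and 734 in WT cortex. The log2 change was -0.73 ± 0.20 (SE; n = 2 arrays a group) with an adjusted p of 0.306 (limma), and both S1/2-/- arrays were below both WT arrays. At ZT4 Rpl22 had 610 and 520 in S1/2-/- cortex, against 498 and 535 in WT cortex, so that the groups overlapped. Rps3a1, a small subunit protein at the exit of the message channel, had 7259 and 7352 in S1/2-/- cortex at ZT16, against 8326 and 9112 in WT cortex. Its log2 change was -0.25 ± 0.081 (adjusted p = 0.354, limma), and at ZT4 its values of 8556 and 8251 in S1/2-/- cortex, against 8383 and 8164 in WT cortex, overlapped.

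Rps4x and Rps24 were lower in S1/2-/- cortex at both times. Rps4x, the X-linked form of a small subunit protein, had 5222 and 5697 in S1/2-/- cortex at ZT16, against 6095 and 7299 in WT cortex, and 5788 and 5367 at ZT4, against 6703 and 6327 in WT cortex. Each of the 4 S1/2-/- arrays was below each of the 4 WT arrays, and the log2 change for the mean of both times was -0.26 ± 0.074 (adjusted p = 0.241, limma). Rps24, a small subunit protein whose mutation in people causes Diamond-Blackfan anaemia, had 11950 and 12535 in S1/2-/- cortex at ZT16, against 13135 and 14991 in WT cortex, and 11751 and 11774 at ZT4, against 13197 and 13587 in WT cortex. Its 4 S1/2-/- arrays were also below all 4 WT arrays, with a log2 change for the mean of both times of -0.19 ± 0.059 (adjusted p = 0.264, limma).

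Among the other cytosolic genes with a known role, Rps3, which lines the entry of the message channel and also acts in DNA repair, had 6062 and 5911 in S1/2-/- cortex at ZT16, against 6700 and 7088 in WT cortex, with a log2 change of -0.20 ± 0.082 (adjusted p = 0.40, limma). Rplp0, the base of the stalk that recruits elongation factors, had 5532 and 5663 in S1/2-/- cortex at ZT16, against 5677 and 5318 in WT cortex, and its change of 0.027 ± 0.088 turned to -0.076 under median centring. Rpl13a, which in human cells also silences messages of inflammation, had 749 and 734 in S1/2-/- cortex, against 729 and 908 in WT cortex, and a change of -0.13 ± 0.16. The groups overlapped for Rplp0 and Rpl13a. Rps27, a zinc finger protein of the small subunit, had 572 and 635 in S1/2-/- cortex, against 514 and 566 in WT cortex, a change of 0.16 ± 0.17, and thus did not share the direction of the majority. Its paralog Rps27l, a target of p53, was under the filter, with 75.6 and 72.2 in S1/2-/- cortex, against 54.5 and 45.6 in WT cortex. Rps14, also under the filter, had 15.9 and 46.0 in S1/2-/- cortex, against 38.9 and 46.6 in WT cortex. The 9 cytosolic genes under the filter were Rpl32, Rpl35a, Rpl38, Rpl39, Rpl39l, Rps14, Rps15, Rps20 and Rps27l.

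Mrps7, a small subunit protein of the mitochondrial ribosome whose mutation in people impairs mitochondrial translation, had the lowest p of the mitochondrial genes for the mean of both times. It had 320 and 319 in S1/2-/- cortex at ZT16, against 504 and 472 in WT cortex. At ZT4 it had 287 and 379 in S1/2-/- cortex, against 490 and 429 in WT cortex. All 4 S1/2-/- arrays were below all 4 WT arrays, with log2 changes of -0.61 ± 0.20 at ZT16, -0.48 ± 0.20 at ZT4 and -0.54 ± 0.14 for the mean of both times (adjusted p = 0.361, 0.633 and 0.192, limma). Mrpl13, a large subunit protein, had 520 and 544 in S1/2-/- cortex at ZT16, against 641 and 626 in WT cortex, and 617 and 496 at ZT4, against 801 and 736 in WT cortex. Its groups did not overlap either, and the change for the mean of both times was -0.36 ± 0.11 (adjusted p = 0.267, limma).

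Mrpl27, another large subunit protein, had 1291 and 1433 in S1/2-/- cortex at ZT16, against 1780 and 1833 in WT cortex, a log2 change of -0.41 ± 0.12 (adjusted p = 0.318, limma). At ZT4 it had 1951 and 1665 in S1/2-/- cortex, against 1664 and 1663 in WT cortex. Both S1/2-/- arrays at ZT16 were thus below every other array, and both at ZT4 were above the WT arrays, one of them barely. Mrpl3, a large subunit protein whose mutation in people causes cardiomyopathy, had 497 and 588 in S1/2-/- cortex at ZT16, against 237 and 458 in WT cortex, a change of 0.71 ± 0.27 (adjusted p = 0.381, limma) that was 0.24 without replicate 1 of WT at ZT16. Mrpl12, which forms the stalk, had 578 and 641 in S1/2-/- cortex at ZT16, against 610 and 582 in WT cortex. Mrps12, part of the decoding centre, had 757 and 969 in S1/2-/- cortex, against 965 and 742 in WT cortex. The groups overlapped for both genes. Mrpl44, a large subunit protein, had 363 and 423 in S1/2-/- cortex, against 362 and 376 in WT cortex. The changes of these genes were 0.030 ± 0.14, 0.017 ± 0.20 and 0.087 ± 0.18, and all 3 turned negative under median centring.

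**Figure D4:**
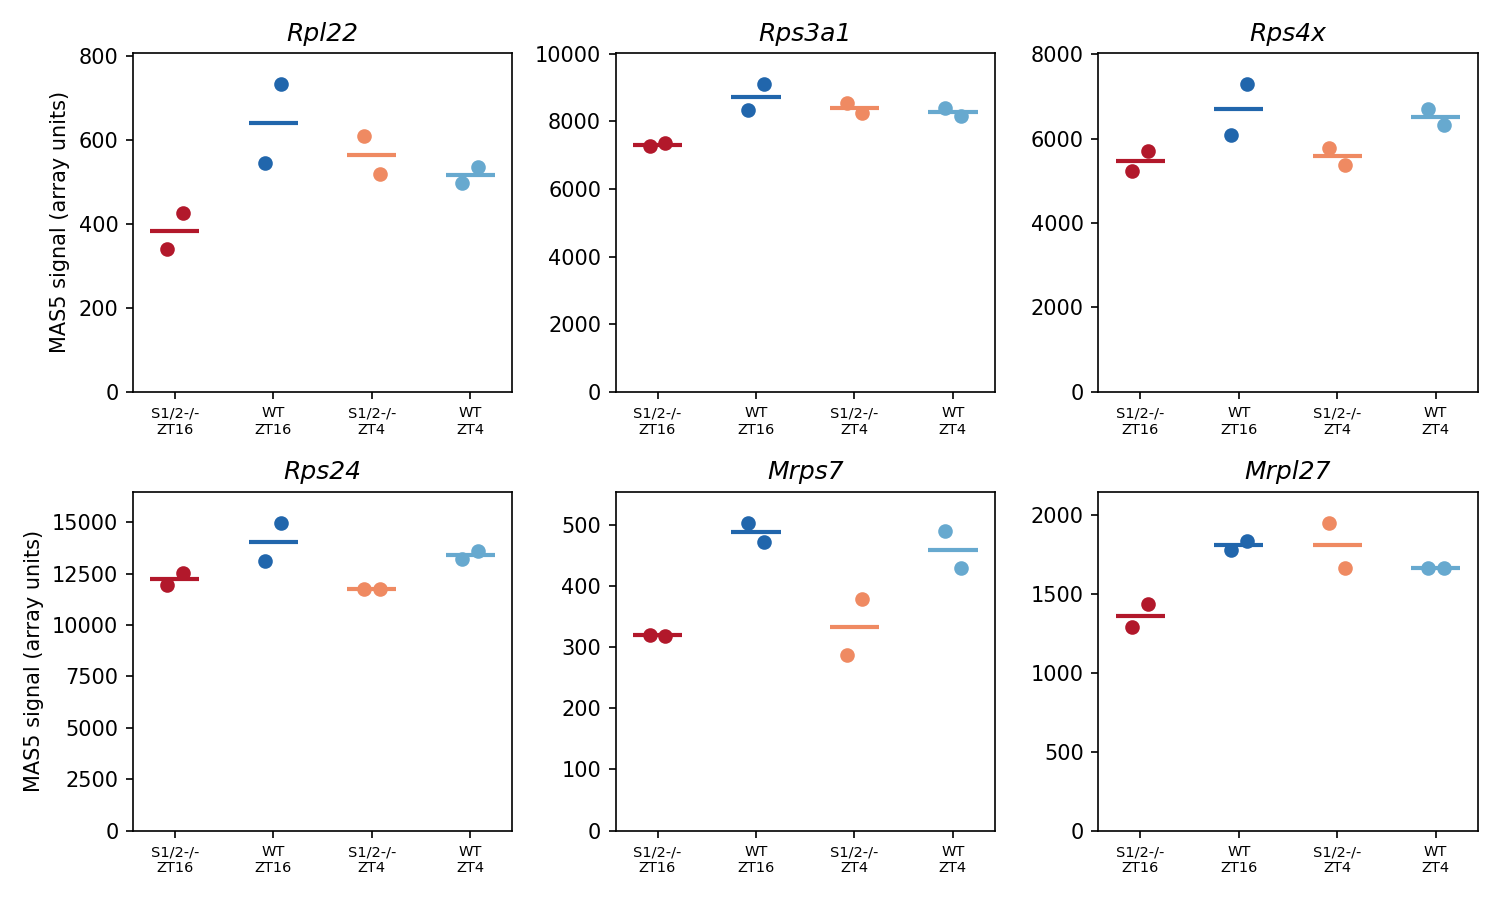
MAS5 signal (y axis, linear array units from 0) of Rpl22, Rps3a1, Rps4x, Rps24, Mrps7 and Mrpl27 on each array (dots), with the mean of the 2 arrays of a group (lines), in the order S1/2-/- ZT16, WT ZT16, S1/2-/- ZT4 and WT ZT4. Mrps7 lies at 287 to 379 on the 4 S1/2-/- arrays and at 429 to 504 on the 4 WT arrays, Rpl22 is separated at ZT16 and overlaps at ZT4, and for Mrpl27 the S1/2-/- arrays lie below the WT arrays at ZT16 and above them at ZT4.

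Because the cytosolic genes had the lower median at ZT16, the sequence around the members' starts was read from RefSeq (GRCm38.p6), which gave a stretch of 250 bases before and 50 bases after the start for 27 cytosolic and 54 mitochondrial genes. A C followed by at least 7 pyrimidines within 50 bases of a listed start, on the strand of the transcript, was present in 20 of 27 cytosolic genes (74.1%), 17 of 54 mitochondrial genes (31.5%) and 32.7% of 17491 protein-coding genes. Examples of cytosolic genes whose run spans a listed start or lies within a few bases of it are given, with the run in capitals.
Rpl7a: caattCCCTCTTCTTTCTTTCTCCagcagc
Rps10: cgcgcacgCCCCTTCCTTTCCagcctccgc
Rps18: tcacttccgCTCTCTCTTCCacaggaggcc
Rps24: cgcgctggggtCCTTCCTTgcgcgttgata
Rps27: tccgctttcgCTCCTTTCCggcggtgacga
Rpl13a: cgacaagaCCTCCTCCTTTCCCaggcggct
They lie at chr2:26910790-26910819 (plus strand), chr17:27635226-27635255 (minus), chr17:33955647-33955676 (minus), chr14:24490665-24490694 (plus), chr3:90213631-90213660 (minus) and chr7:45128722-45128751 (minus), in the order printed, and each spans the start of transcription or the first bases after it. Rps10, Rps18 and Rps24 were among the 12 genes lower at ZT16 at the unadjusted limit, and Rpl7a, Rps27 and Rpl13a were not. Rpl7a still had both S1/2-/- arrays at ZT16 (4621 and 4157) below both WT arrays (4821 and 5138). Rpl13a had a log2 change of -0.13 and Rps27 one of 0.16. Rps3, Rps3a1 and Rps4x were among the 12 genes and had no such run within 50 bases of a listed start. The search did not ask that the message start with the C, so these runs were not shown to be TOP motifs. Counted from a listed start, the printed run of Rpl13a begins at 3, that of Rpl7a at -12 and that of Rps24 at -2. Rps24 also has runs that are not printed. The run is a description of these letters, and translation was not measured.

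The E-box CACGTG, which reads the same on both strands and is bound by SHARP1 and SHARP2, was found in the 300 bases of 3 of 27 cytosolic genes (11.1%), 4 of 54 mitochondrial genes (7.41%) and 8.91% of all protein-coding genes. The ETS motif CCGGAAG, searched on both strands, was found in 11 (40.7%), 19 (35.2%) and 12.9%. The E-boxes nearest to a listed start are shown because SHARP1 and SHARP2 are the proteins that the S1/2-/- mice lack, with the E-box in capitals.
Rpl19: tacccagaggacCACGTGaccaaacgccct
Mrpl20: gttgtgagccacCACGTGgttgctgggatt
Mrpl36: cacacgtcatccCACGTGaccttacgccat
They lie at chr11:98026679-98026708, chr4:155802833-155802862 and chr13:73330954-73330983 (plus strand). Rpl19, a large subunit protein, had 5634 and 6225 in S1/2-/- cortex at ZT16, against 6405 and 4450 in WT cortex, so that the groups overlapped. Mrpl20, a large subunit protein of the mitochondrial ribosome, had 868 and 722 in S1/2-/- cortex at ZT16, against 956 and 930 in WT cortex, and Mrpl36, another, had 664 and 638 in S1/2-/- cortex, against 591 and 654 in WT cortex. Of the 7 members with an E-box, both S1/2-/- arrays at ZT16 were below both WT arrays in 3 (Mrpl20, Mrpl37 and Rps19), and the groups overlapped in the other 4 (Rpl13a, Rpl19, Mrpl2 and Mrpl36). The same order was found in 64% of the tested cytosolic genes, 29.8% of the tested mitochondrial genes and 21% of all tested probe sets. A part of the E-box in these values was not tested.

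At ZT4 the cytosolic median in S1/2-/- against WT cortex was -0.096 with 17 of 25 lower, the mitochondrial median 0.019 with 24 of 57 lower, and that of all tested probe sets -0.0040. At the unadjusted limit 1 cytosolic gene (Rps24) was lower and 0 higher, and 2 mitochondrial genes (Mrps7 and Mrpl13) were lower and 0 higher, against 3.25% lower and 4.04% higher of all tested probe sets, so that both shares were near the background. The difference between the 2 medians was -0.12, but -0.034 without replicate 2 of WT at ZT4 and -0.075 without replicate 1 of S1/2-/- at ZT4, where the mitochondrial median turned to -0.026. For the mean of both times the cytosolic median was -0.16 with 19 of 25 lower, 11 of them at the unadjusted limit and 0 higher, against 5.94% and 6.44% of all tested probe sets. Rps4l, the annotated pseudogene, and Rps19 joined 9 of the 12 genes lower at the unadjusted limit at ZT16. The mitochondrial median was -0.053, with 3 genes lower (Mrps7, Mrpl13 and Mrps31) and 0 higher. All 4 S1/2-/- arrays were below all 4 WT arrays in 5 cytosolic genes (Rpl10a, Rpl8, Rps18, Rps24 and Rps4x, 20%) and 4 mitochondrial genes (7.02%), against 3.74% of all tested probe sets. The count of 11 was 4 to 12 when 1 array was left out, 4 of them without replicate 2 of S1/2-/- at ZT4, 5 without replicate 1 of S1/2-/- at ZT16, 6 without replicate 1 of WT at ZT4 and 7 without replicate 2 of WT at ZT16, and it was 2 with a variance not tied to signal.

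Between the 2 times the cytosolic genes had opposite signs in the 2 genotypes. In S1/2-/- cortex they had a median log2 change of -0.10 at ZT16 against ZT4, with 18 of 25 lower, and in WT cortex one of 0.054, with 8 of 25 lower. The mitochondrial medians were -0.070 (45 of 57 lower) in S1/2-/- cortex and -0.0091 (31 of 57) in WT cortex, and those of all tested probe sets -0.0027 in each. The sign of the WT value turned without replicate 2 of WT at ZT16, to -0.028, and the S1/2-/- value was -0.057 with quantile normalization and -0.024 without replicate 1 of S1/2-/- at ZT4. Oligodendrocyte markers summed to 26041 and 28266 in S1/2-/- cortex at ZT16, against 28404 and 29580 at ZT4, while the WT arrays had 22386 and 22904 at ZT16, against 16854 and 18621 at ZT4. These sums and the choroid plexus sums given above were lower at ZT16 in S1/2-/- and higher at ZT16 in WT cortex, without overlap, and their part in the cytosolic values was not tested. At the unadjusted limit 1 cytosolic gene was higher (Rpl37a) and 2 lower (Rpl22 and Rps3a1) in S1/2-/- cortex, with a background of 4.33% and 2.98%, and 0 in either direction in WT cortex, with a background of 3.93% and 3.68%. Of the mitochondrial genes, 0 were higher and 3 lower (Mrps25, Mrpl16 and Mrpl27) in S1/2-/- cortex, and 1 higher (Mrpl37) and 2 lower (Mrps15 and Mrpl43) in WT cortex.

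Mrps25, a small subunit protein linked to mitochondrial encephalomyopathy, had 285 and 276 in S1/2-/- cortex at ZT16, against 419 and 535 at ZT4, a log2 change of -0.76 ± 0.22 (adjusted p = 0.510, limma). In WT cortex it had 389 and 346 at ZT16, against 475 and 343 at ZT4. The groups were separate in S1/2-/- cortex and overlapped in WT cortex. Rpl37a, a zinc finger protein of the large subunit, had 4446 and 4469 in S1/2-/- cortex at ZT16, against 3289 and 3863 at ZT4 (0.32 ± 0.12, adjusted p = 0.609, limma), and 3392 and 4066 in WT cortex at ZT16, against 3466 and 3846 at ZT4. It was the 1 cytosolic gene that was higher at ZT16 at the unadjusted limit. In WT cortex Rpl41, a very short ribosomal protein, had 22918 and 23989 at ZT16, against 20536 and 21898 at ZT4. Mrps15, a mitochondrial small subunit protein, had 194 and 181 at ZT16 in WT cortex, against 281 and 294 at ZT4. The WT arrays of the 2 times did not overlap for Rpl41 and Mrps15. Over all tested probe sets, both ZT16 arrays were above both ZT4 arrays in WT cortex in 17.9% and below them in 18%. Mrpl37, a large subunit protein, had 843 and 901 in WT cortex at ZT16, against 687 and 647 at ZT4, also with no overlap. The adjusted p of these 3 genes were 0.670, 0.625 and 0.625 (limma). For the mean of both genotypes the cytosolic and mitochondrial medians were -0.017 and -0.062, with 0 and 0 genes higher and 1 (Rplp0) and 4 (Mrps25, Mrps15, Mrpl16 and Mrpl43) lower, against 5.34% and 4.04% of all tested probe sets. Rplp0 had 5532 and 5663 in S1/2-/- cortex at ZT16, against 6699 and 6009 at ZT4, and 5677 and 5318 in WT cortex at ZT16, against 6112 and 6091 at ZT4. Mrpl16, a large subunit protein, had 473 and 497 in S1/2-/- cortex at ZT16, against 745 and 571 at ZT4, and 596 and 582 in WT cortex at ZT16, against 724 and 657 at ZT4. In both genes the ZT16 arrays were below the ZT4 arrays of their genotype.

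The change with time differed between the genotypes by a median of -0.12 in the cytosolic genes (20 of 25 below 0) and -0.12 in the mitochondrial genes (35 of 57), against 0.0095 over all tested probe sets. The difference of the medians was 0.0047, but 0.096 with quantile normalization and -0.046 to 0.076 when 1 array was left out, so that its sign was not settled. The cytosolic median itself was -0.042 with quantile normalization and -0.040 without replicate 2 of WT at ZT4. At the unadjusted limit 3 cytosolic genes were below 0 (Rpl22, Rps3a1 and Rps3) and 0 above, and 1 mitochondrial gene was below 0 (Mrpl27) and 0 above, against 2.95% below and 2.74% above of all tested probe sets. The values were -0.86 ± 0.28 for Rpl22, -0.28 ± 0.11 for Rps3a1 and -0.53 ± 0.17 for Mrpl27 (adjusted p = 0.745, 0.850 and 0.738, limma), and Mrps25 had -0.62 ± 0.31. This comparison shares its arrays with those above and adds no arrays to them.

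A further 44 probe sets carried a ribosomal protein symbol together with others and were left out of the members because their signal cannot be given to 1 gene. They included 28 cytosolic genes that had no probe set of their own, 26 of them above the filter. At ZT16 21 of 26 were lower, with a median of -0.22, and 11 were lower at the unadjusted limit and 0 higher, against 5.21% and 5.73%. These genes are on the same arrays as the members, and their counts are not a separate sample. The probe sets of 9 cytosolic members carry a letter suffix in their names (f, s or r), of which f and s mark several possible targets. Without these probe sets the median at ZT16 was -0.22. For 22 genes there was more than 1 probe set. Those of Mrpl48 and Mrps18a disagreed in sign: at ZT4 the probe set used for Mrpl48 had a log2 change of 0.36 in S1/2-/- against WT cortex and the other -0.68, and at ZT16 4 probe sets of Mrps18a had 0.020, 0.099, 0.86 and -0.57, the first being the one used. Both genes encode mitochondrial ribosomal proteins, and their values are therefore uncertain.

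The other lists of translation genes had medians on either side of 0 at ZT16. For the counts given with them, the background over all tested probe sets was 5.21% lower and 5.73% higher at the unadjusted limit. The 29 tested initiation factors had a median log2 change of 0.034 in S1/2-/- against WT cortex, with 2 lower and 1 higher at that limit. Eif4a1 and Eif4a2, helicases that unwind the leader of the message, had -0.46 and 0.25. The 38 ribosome biogenesis genes had a median of -0.00065, with 3 lower and 2 higher, among them Nhp2, which guides pseudouridine formation in ribosomal RNA, at -0.54, and Polr1b, a subunit of RNA polymerase I, at 0.88. The 9 elongation and release factors had a median of -0.13, with 0 lower and 1 higher, Eef2, the translocase, at 0.19, and its kinase Eef2k at -1.36. The 10 genes of S6 kinase and mTORC1 had a median of 0.0025, with 0 in either direction, Mtor at -0.14 and Pdpk1, which phosphorylates S6 kinase, at -0.16. The 18 cytosolic aminoacyl-tRNA synthetases had a median of -0.070, with 0 in either direction, Gars at -0.19 and Tars at 0.33. The list made for mitochondrial translation factors, with 10 tested genes, had a median of 0.13, with 1 lower and 0 higher. The lower gene was Tfb2m (-0.69), which acts at mitochondrial promoters and not in translation, and C1qbp, a matrix protein, had 1.08. Among listed genes that the naming rule misses, Rpsa of the cytosolic small subunit had -0.015 and Fau was under the filter, while Dap3 and Ptcd3 of the mitochondrial small subunit had -0.029 and 0.25 and Mrm3, which methylates mitochondrial ribosomal RNA, had -0.46. Mrpl58, on the same list, is a member and had -0.32. No gene named in this paragraph was called, the lowest adjusted p among them being 0.263 (limma).

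Across the 8 arrays, 2 cytosolic genes had a median pairwise Pearson correlation of 0.17 over 300 pairs, 2 mitochondrial genes 0.052 over 1596 pairs and a gene of each 0.099 over 1425 pairs, against -0.0016 over all pairs of tested probe sets. These values hold the differences between the groups as well as the spread within them, and all pairs share the same 8 arrays.

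**Figure D5:**
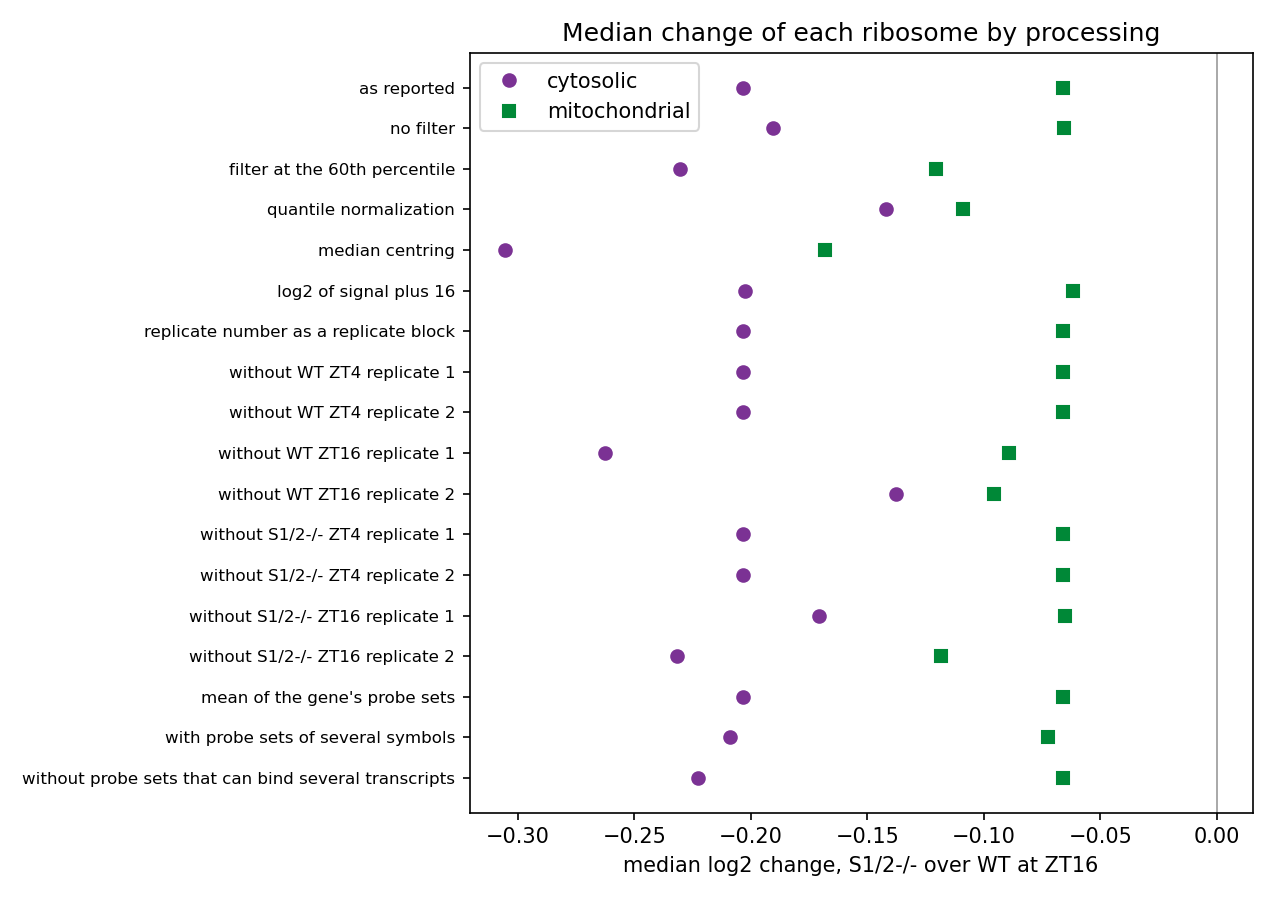
Median log2 change in S1/2-/- over WT cortex at ZT16 (x axis) of the cytosolic (circles) and mitochondrial (squares) ribosomal protein genes under each processing (rows), including the omission of single arrays. All values lie below 0; the cytosolic median runs from -0.31 (median centring) to -0.14 and lies below the mitochondrial one in every row.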

How the data were processed

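The authors deposited 1 table of intensity values, the MAS5 signals of 12488 probe sets on 8 arrays, and all 8 columns were used. Per the labels the signals come from MAS5 (no version stated), and RNA was extracted with Trizol, while the methods name RNeasy columns. The deposited signals have a trimmed mean of 500 on every array (2% trimmed at each end), so they are already scaled. No detection calls, scan dates or slides were used here, and the number of arrays limits the precision.

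Without the 66 control probe sets, log2 of the signal was taken after 64 values below 1 had been raised to 1, and the probe sets above the 40th percentile of mean log2 signal (6.79) were tested, 7453 in all. Symbols came from the annotation of the array: 10833 probe sets had 1 symbol, 396 several and 1193 none. A model of 4 group means over the 8 arrays was fitted in limma 3.58.1 (R 4.3.3), with a variance trend on signal and 4 residual and 6.02 prior degrees of freedom. It gave 7 comparisons, with Benjamini-Hochberg adjustment over the tested probe sets. All fold changes are differences of log2 signal, and a call also needs a fold over 1.5, so smaller differences cannot be called. The scripts were tested on simulated data.

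The members and gene lists were chosen with earlier results of these data known. Genes named with values were, in each comparison, the 2 tested genes of each ribosome with the lowest p, genes with a fixed role, genes whose probe sets disagreed in sign, and, for each other list of translation genes, the 2 with the lowest p at ZT16. Genes outside these rules (such as Mrps31 or Rpl7) are named as members of a count, and Mrpl20, Mrpl36, Ptcd3 and Fau beside their lists, after their values were seen. Tried besides were testing all probe sets, a stricter filter (60th percentile), quantile normalization and median centring, log2 of the signal plus 16, no variance trend, the mean of a gene's probe sets, the replicate number as a block, and each array left out. The unadjusted counts, the probe sets with several symbols and those with suffixed names were added after seeing the data. Promoter sequences are from RefSeq (GRCm38.p6), matched by gene identifier for 81 of 95 members.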

Additional observations from a re-analysis of the deposited data

How the results depend on the processing

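No ribosomal protein gene was called in any of the 7 comparisons under any alternative. The numbers of replicates did not pair the arrays (correlations of same-numbered deviations of -0.0014 to 0.098), and with the replicate number as a replicate block 13 cytosolic genes were lower at the unadjusted limit at ZT16. The block moved the calls over all probe sets to 0 for S1/2-/- against WT at ZT16, 13 at ZT4, 10 for ZT16 against ZT4 in WT, 2 for the difference between the genotypes and 13 for the mean of both times, against 1, 7, 1, 0 and 19 without it. Without replicate 1 of WT at ZT16, Rps4x and Rps24 had adjusted p of 0.0392 and 0.0400 for the mean of both times and Rpl19 0.0431 for ZT16 against ZT4 in WT (limma), all at a fold under 1.5. Each omission leaves 1 array in a group, here that with 4450 for Rpl19 (6405 on the omitted one), and that array is assumed to vary like the other groups.

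In S1/2-/- against WT cortex at ZT16, quantile normalization gave medians of -0.14 for the cytosolic genes and -0.11 for the mitochondrial genes (difference -0.033), median centring -0.31 and -0.17, and the 60th percentile filter -0.12 for the mitochondrial genes. Omitting single arrays gave -0.26 to -0.14 for the cytosolic genes, -0.12 to -0.065 for the mitochondrial genes and -0.17 to -0.042 for their difference. The count of cytosolic genes lower at the unadjusted limit was 5 with quantile normalization, 1 without a variance trend, 23 with the genes of several symbols added (51 tested) and 1 to 12 without single arrays. The mitochondrial count was 8 with median centring and 1 to 6 without single arrays. At ZT4, omitting arrays gave -0.10 to -0.053 for the cytosolic median, -0.026 to 0.046 for the mitochondrial median and -0.12 to -0.034 for their difference. For the mean of both times, median centring gave -0.23 and -0.12, quantile normalization a difference of -0.075, and omitted arrays -0.19 to -0.12 for the cytosolic median. The cytosolic count there was 2 without a variance trend, 22 with the genes of several symbols and 4 to 12 without single arrays, and the mitochondrial count 8 with median centring and 2 to 5 without single arrays.

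For ZT16 against ZT4 in S1/2-/-, quantile normalization gave a cytosolic median of -0.057 and a difference of 0.031, median centring -0.14 and -0.12, and omitted arrays -0.14 to -0.024, -0.13 to -0.049 and -0.043 to 0.055 for the cytosolic and mitochondrial medians and their difference. In WT, omitted arrays gave -0.028 to 0.14 for the cytosolic median and -0.023 to 0.13 for the difference. For the difference between the genotypes in the change with time, quantile normalization gave a cytosolic median of -0.042 and a difference of 0.096, median centring -0.19 and -0.19, and omitted arrays -0.16 to -0.040, -0.13 to -0.064 and -0.046 to 0.076. For the mean of both genotypes, omitted arrays gave -0.057 to -0.0096 for the cytosolic median and -0.013 to 0.035 for the difference, and the 60th percentile filter a difference of 0.011. The cause of these shifts was not tested.

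Directions of single genes at ZT16 that were near 0 turned under median centring for Rplp0 (-0.076), Mrpl12 (-0.072), Mrps12 (-0.085), Mrpl44 (-0.016) and Mrps18a (-0.083), and under quantile normalization for Mrps12 (-0.0029). Omitting single arrays gave values of -0.020 to 0.074 for Rplp0, -0.29 to 0.025 for Rpl13a, -0.045 to 0.10 for Mrpl12, -0.17 to 0.21 for Mrps12, -0.024 to 0.20 for Mrpl44 and -0.22 to 0.26 for Mrps18a.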
